A study of Mus musculus with 12 samples.

Results

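The AIM2-like p200 genes form a cluster on mouse chromosome 1, and 8 of them (*Aim2*, *Ifi213*, *Ifi209*, *Ifi207*, *Ifi204*, *Mndal*, *Ifi211* and *Ifi203*, in the order of their positions) were taken by their symbols from a table of 54833 genes. All 8 passed the filter on low counts that left 21495 genes to test. The RNA came from perihematomal tissue of the ipsilateral caudate putamen of male wild-type C57BL/6 mice, 24 h after surgery. ICH (intracerebral hemorrhage) was induced with type IV collagenase, an enzyme that breaks down the wall of small vessels, and sham mice had the surgery without it. Mice of 8 to 10 weeks made up the young groups (sham and ICH), and mice of 20 to 22 months the aged groups, with 3 samples in each of the 4. Since a sample was a pool of 2 to 3 mice, errors and *P* values refer to differences among pools. Between 28410896 and 37785160 reads per sample were assigned to genes, and a member had 15 to 816 counts in a sample.

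The p200 proteins carry 1 or more HIN domains, which bind DNA, and most also carry a pyrin domain, through which they meet partner proteins. AIM2 binds double-stranded DNA in the cytosol and assembles with the adaptor ASC (gene *Pycard*) and caspase-1 into an inflammasome, which matures IL-1β and IL-18 and opens pores in the cell through gasdermin D. IFI204 is a mouse relative of human IFI16 that has been studied as a DNA sensor upstream of STING. Many genes of the family are induced by type I IFN, and in the brain they are mainly known from microglia and from myeloid cells that enter from the blood. The roles of *Ifi203*, *Ifi207*, *Ifi209*, *Ifi211*, *Ifi213* and *Mndal* are less well known.

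The members lie between positions 173350879 and 173942672 of chromosome 1 (GRCm38, GENCODE M21), a span of 591794 bases that holds 19 annotated genes, of which 12 were tested. *Aim2* and *Ifi209* are on the plus strand, the other 6 on the minus strand, and all 8 are protein coding. The annotated body of *Mndal* (chr1:173849126-173942491) contains that of *Ifi211* (chr1:173896345-173913046) and overlaps that of *Ifi203* (chr1:173920407-173942672) on the same strand. Their exons are almost separate, since *Mndal* shares 37 exonic bases with *Ifi203* and none with *Ifi211*. The body of *Aim2* (chr1:173350879-173466040) overlaps *Cadm3*, a gene for a neuronal adhesion protein on the opposite strand, over 16817 bases, with no shared exonic base.

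The genes are similar enough for reads to fit more than one of them, and this differed widely between members. Of all stretches of 100 bases in the annotated transcript of *Ifi211*, 56.9% occurred unchanged in a transcript of another gene, most often of *Ifi205* (37.2%). For *Ifi209* the share was 16.9%, all of it with *Ifi214*, and for *Ifi204* it was 10.7%, mostly with *Ifi211*. The shares were 6.38% for *Mndal*, 3.30% for *Ifi213*, 2.84% for *Ifi203*, 0.79% for *Ifi207* and 0 for *Aim2*. With stretches of 50 bases the shares were 72.8% for *Ifi211*, 33.7% for *Ifi209*, 20.0% for *Ifi204*, 7.29% for *Ifi207* and 0.742% for *Aim2*. The sources used here do not give how reads that fit several genes were counted, or whether strand was used. The value of *Ifi211* is therefore the least certain, while those of *Aim2* and *Ifi207* depend least on such reads.

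**Figure D1:**
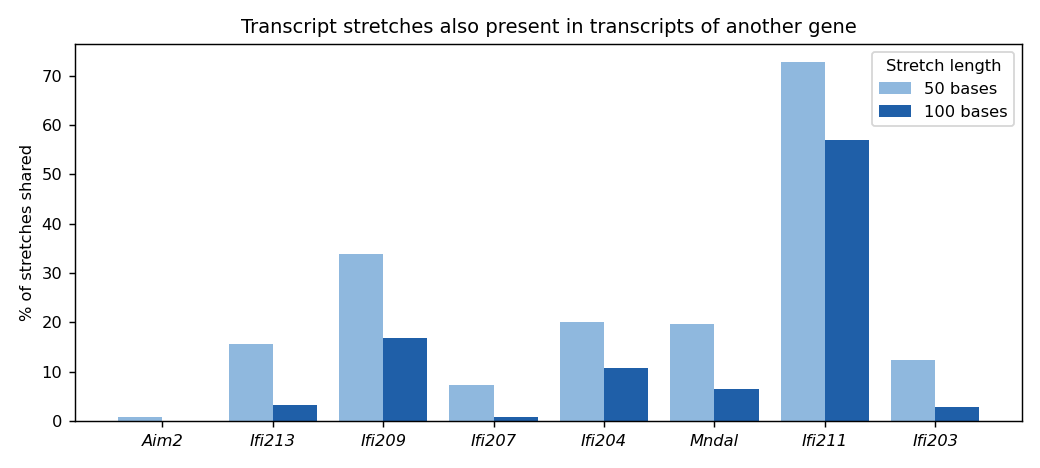
Percentage of the 50-base and 100-base stretches of each member's annotated transcripts (y axis) that occur in a transcript of another gene, for the 8 members (x axis). *Ifi211* stands highest at 72.8% and 56.9%, and *Aim2* lowest at 0.742% and 0.

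Windows around the start sites (250 bases before to 50 after, RefSeq, GRCm38.p6) were at hand for 7 of the members, all but *Ifi204*. They are shown because the members moved together in the tissue and because family members are known targets of IFN, whose factors bind the IFN-stimulated response element (ISRE). The core searched was GAAANNGAA on either strand. It was found for 5 members, *Ifi213*, *Ifi207*, *Mndal*, *Ifi211* and *Ifi203*, against 8.56% of all 32841 windows and 9.76% of the 27018 genes that have a window. Of 5 other p200 genes with a window 4 held it as well (*Ifi206*, *Ifi214*, *Ifi208* and *Ifi205*). *Mndal* had a further match in the window of another start site, on the strand opposite to the gene, which is not shown. The stretches below give the match in capitals with 30 bases on each side, read 5′ to 3′ on the gene's strand, which is minus for these 5:
Ifi213, chr1:173599307-173599375: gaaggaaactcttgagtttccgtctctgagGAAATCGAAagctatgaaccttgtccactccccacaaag
Ifi207, chr1:173741812-173741880: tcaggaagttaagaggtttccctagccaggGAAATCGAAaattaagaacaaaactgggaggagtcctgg
Mndal, chr1:173880185-173880253: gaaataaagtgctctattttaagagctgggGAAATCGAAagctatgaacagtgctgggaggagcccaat
Ifi211, chr1:173913045-173913113: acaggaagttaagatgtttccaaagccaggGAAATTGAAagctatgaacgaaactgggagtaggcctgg
Ifi203, chr1:173942489-173942557: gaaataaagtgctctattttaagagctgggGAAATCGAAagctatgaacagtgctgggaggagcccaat

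The stretches of *Mndal* and *Ifi203* are the same base for base, and their windows were identical at 97.6% of 289 aligned bases. The windows of *Ifi207* and *Ifi211* were identical at 88.4% of 294 aligned bases. The matches shown began between 73 bases (*Ifi213*) and 35 bases (*Ifi203*) before the start site. No match to the GAS core TTCNNNGAA (8.3% of all windows) or to the NF-κB core GGGANTTCC (1.68%) was found in the windows of the members. The window of *Ifi209* held no ISRE core, but it was identical to that of the family gene *Ifi214* at 96% of 299 aligned bases, and *Ifi214* holds one. The capitals in the next pair mark the core of *Ifi214* and the bases of *Ifi209* that align with it:
Ifi214, chr1:173535998-173536066, minus strand: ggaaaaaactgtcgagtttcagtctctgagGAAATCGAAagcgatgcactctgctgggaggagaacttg
Ifi209, chr1:173630750-173630818, plus strand: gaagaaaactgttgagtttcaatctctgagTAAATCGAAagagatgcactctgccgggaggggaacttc

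The difference within the core is G1T, counted from 1 at the 5′ end of the core of *Ifi214*. The window of *Aim2* (chr1:173420354-173420653) held none of the 3 cores. The windows of *Aim2* and *Mndal*, at RefSeq start sites, lie inside the GENCODE bodies given above, away from where those bodies begin. A match is a description of letters, and no binding was measured.

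Some libraries stood apart, and they bear on most of the values below. Aged sham replicate 2 had the lowest level of *Ifi209*, *Ifi207*, *Ifi204* and *Ifi213* of all 12 samples, and it was also low in IFN-stimulated genes outside the family, whose summed level was 308 CPM (counts per library scaled to its size) against 703 and 585 in the other aged sham samples. Young sham replicate 3 was the highest young sham sample in all members but *Aim2*, with 599 CPM of IFN-stimulated genes against 414 and 347. Young ICH replicate 3 was the highest young ICH sample in every member but *Ifi203*. The dissection also varied. The summed level of 7 choroid plexus genes (most abundant *Ttr*, none at 0) was 494, 305 and 53.9 CPM in young sham replicates 1 to 3, 54.4, 12.9 and 4090 CPM in young ICH, 67.5, 56.0 and 87.4 CPM in aged sham, and 1562, 1979 and 42.2 CPM in aged ICH. The 10 markers of striatal neurons (most abundant *Pde10a*, none at 0), which check the labelled tissue, were present in every sample, from 467 CPM in aged ICH replicate 1 to 3782 CPM in young sham replicate 1. In bulk tissue, fewer cells of a type and less RNA per cell cannot be told apart.

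Per length, *Aim2* had the highest mean of the members in young sham tissue and a lower place in aged ICH tissue. Its level in young sham was 1.49 ± 0.216 FPKM (counts scaled by exonic length and library size, mean ± SD, n = 3 here and below). *Ifi204* followed at 1.23 ± 0.516 FPKM, and its spread included the mean of *Aim2*. *Ifi207* (0.724 ± 0.176 FPKM), *Ifi209* (0.699 ± 0.307), *Mndal* (0.564 ± 0.225), *Ifi211* (0.553 ± 0.411) and *Ifi203* (0.472 ± 0.0765) did not differ from their neighbors in this order beyond their spread. *Ifi213* was lowest at 0.182 ± 0.112 FPKM. In young ICH tissue *Ifi204* (3.01 ± 1.25 FPKM), *Ifi207* (2.60 ± 0.841) and *Aim2* (2.44 ± 0.199) did not differ beyond their spread, and in replicate 2 *Aim2* was still the highest member. In aged sham tissue *Aim2* (2.03 ± 0.182 FPKM) and *Ifi204* (1.72 ± 1.01) overlapped as well. In aged ICH tissue the order began with *Ifi204* at 5.46 ± 1.16 FPKM, whose samples lay above all those of the other members. *Ifi207* (3.81 ± 0.409 FPKM), *Ifi211* (3.69 ± 0.53) and *Ifi209* (3.30 ± 0.378) followed and overlapped. *Aim2* came next at 2.49 ± 0.13 FPKM, below every sample of those 4 genes, and *Mndal* (1.46 ± 0.21), *Ifi203* (1.36 ± 0.282) and *Ifi213* (0.491 ± 0.0207) followed.

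*Aim2*, the inflammasome sensor, moved over a narrower range than the others. Its level in young sham replicates 1 to 3 was 6.22, 5.52 and 4.62 CPM, in young ICH 7.81, 8.35 and 8.98 CPM, in aged sham 7.05, 6.74 and 7.85 CPM, and in aged ICH 8.75, 8.57 and 7.95 CPM. Every young ICH sample lay above every young sham sample, and every aged ICH sample lay above every aged sham sample, the latter by a narrow margin. In young mice *Aim2* rose 1.53-fold after ICH, a log2FC of 0.62 ± 0.13 (SE), with an adjusted *P* of 0.00696 (edgeR's quasi-likelihood test, Benjamini-Hochberg over all genes). In aged mice the log2FC was 0.22 with a 95% interval from −0.05 to 0.49, and it did not pass (adjusted *P* = 0.262 by edgeR). Aged sham samples were 1.32-fold above young sham samples without overlap, which was below the FC of 1.5 that a call required (log2FC 0.40 ± 0.13, edgeR's unadjusted *P* = 0.00788, adjusted *P* = 0.248). The aged ICH and young ICH groups had nearly the same mean of 8.42 and 8.38 CPM, and the interval of their log2 difference ran from −0.26 to 0.28.

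**Figure D2:**
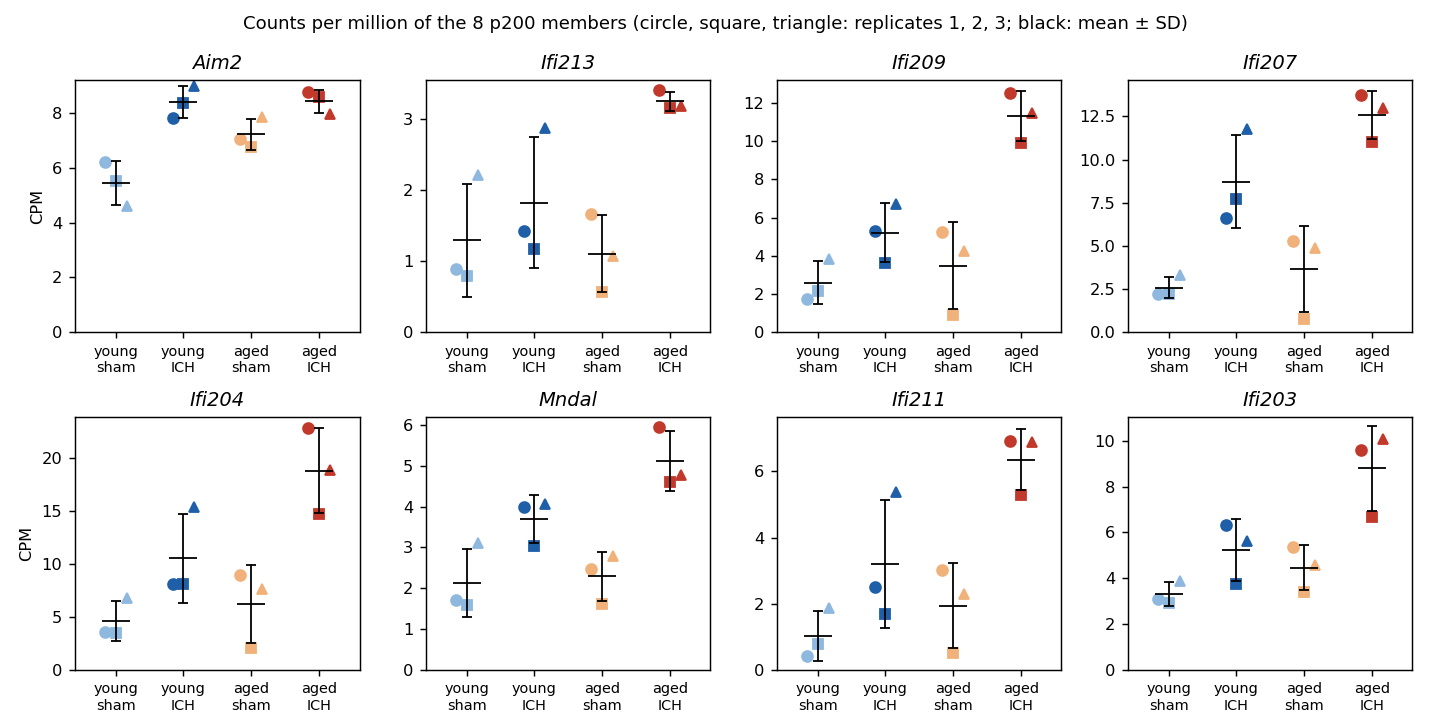
CPM (y axis, from 0) of the 8 members in each of the 4 groups (x axis), with circle, square and triangle for replicates 1, 2 and 3 and black marks for the mean ± SD of 3 samples. In all 8 panels the aged ICH samples lie above the aged sham samples, and aged sham replicate 2 is the lowest of its group.

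After ICH in aged mice the 7 other members rose together. By the criterion for DEGs (FC > 1.5 with an unadjusted *P* under 0.05) 7 of 8 members were upregulated, all but *Aim2*, against 7.24% of all genes tested, and none was downregulated (2.82% of all genes). In all 8 members every aged ICH sample lay above every aged sham sample, against 17.8% of all genes. With an adjusted *P* under 0.05, 6 members were higher after ICH, against 7% of all genes that were higher. A further 1323 of the 21495 genes were lower at that threshold. The median log2FC of the 8 members was 1.57, from 0.22 for *Aim2* to 1.78 for *Ifi207*, beside a median of 0.002 over all genes tested.

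*Ifi207* had the largest log2FC of the members, 1.78 ± 0.48, or 3.43-fold (adjusted *P* = 0.0318 by edgeR). It was measured at 5.30, 0.776 and 4.88 CPM in aged sham replicates 1 to 3 and at 13.7, 11.04 and 12.98 CPM in aged ICH. *Ifi204*, the relative of IFI16, was at 8.97, 2.06 and 7.61 CPM in aged sham and at 22.7, 14.7 and 18.9 CPM in aged ICH. Its log2FC was 1.59 ± 0.46 (adjusted *P* = 0.0405 by edgeR). In both genes aged sham replicate 2 was far below the other aged sham samples, and the lowest aged ICH sample was still well above the highest aged sham sample.

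*Ifi209* was at 5.26, 0.91 and 4.25 CPM in aged sham and at 12.5, 9.92 and 11.5 CPM in aged ICH, and rose 3.25-fold (log2FC 1.70 ± 0.48, adjusted *P* = 0.0377 by edgeR). *Ifi211* rose 3.26-fold by the unadjusted criterion only (log2FC 1.71 ± 0.60, adjusted *P* = 0.0818 by edgeR), from 3.01, 0.506 and 2.31 CPM to 6.91, 5.28 and 6.88 CPM. *Ifi213*, the least abundant member, had 17 to 50 counts per aged sham sample and 93 to 122 per aged ICH sample, and rose 2.93-fold (log2FC 1.55 ± 0.46, adjusted *P* = 0.0449 by edgeR). The same library was the low one in each of these 3 genes.

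*Mndal* and *Ifi203* rose less and with a smaller error. *Mndal* was at 2.48, 1.62 and 2.78 CPM in aged sham and at 5.97, 4.60 and 4.78 CPM in aged ICH (log2FC 1.15 ± 0.27, adjusted *P* = 0.0196 by edgeR). *Ifi203* was at 5.36, 3.41 and 4.58 CPM in aged sham and at 9.62, 6.67 and 10.1 CPM in aged ICH (log2FC 0.98 ± 0.24, adjusted *P* = 0.0208 by edgeR). Without aged sham replicate 2 all 7 genes were still called, with log2FC from 0.82 for *Ifi203* to 1.31 for *Ifi207*, and 2 kept an adjusted *P* under 0.05. The number with an adjusted *P* under 0.05 depended on the libraries, from 0 without aged ICH replicate 1 and 1 without aged ICH replicate 3 to 6, while the count of 7 by the unadjusted criterion stayed at 7 with each of the 12 libraries left out.

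Young mice also gave calls after ICH. Their number does not rank the responses of the ages, since the interaction of age and ICH, given below, called none of the members. Of the 8 members 6 were upregulated DEGs, against 8.66% of all genes tested, and none was downregulated (3.49% of all genes). In 3 members, *Aim2*, *Ifi207* and *Ifi204*, every young ICH sample lay above every young sham sample, against 18.5% of all genes. With an adjusted *P* under 0.05, 2 members (*Aim2* and *Ifi207*) were higher after ICH, against 9.89% of all genes that were higher. A further 1985 of the 21495 genes were lower at that threshold. The median log2FC of the 8 members was 0.91, beside 0.02 over all genes.

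*Ifi207* rose 3.37-fold, from 2.24, 2.22 and 3.30 CPM in young sham to 6.65, 7.72 and 11.8 CPM in young ICH (log2FC 1.75 ± 0.49, adjusted *P* = 0.0281 by edgeR). *Ifi204* went from 3.54, 3.43 and 6.76 CPM to 8.04, 8.12 and 15.3 CPM, and rose 2.30-fold by the unadjusted criterion (adjusted *P* = 0.0906 by edgeR). In both genes replicate 3 was the highest sample of its group. *Ifi211* (log2FC 1.65 ± 0.63), *Mndal* (0.80 ± 0.27) and *Ifi203* (0.67 ± 0.24) were called as well, each with overlapping groups and an adjusted *P* between 0.0617 and 0.0903 by edgeR. The log2FC of *Ifi211* was 1.05 without young ICH replicate 3 and 2.41 without young sham replicate 3. *Ifi209* (log2FC 1.02 ± 0.48) and *Ifi213* (0.50 ± 0.46) did not pass. Without young sham replicate 3 both were called, with 1.42 and 1.11, and without young ICH replicate 3 the value of *Ifi213* was 0.0116.

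This count rested on single libraries more than that of the aged mice. It was 2 of 8 without young sham replicate 1 and also without young sham replicate 2, 3 of 8 without young ICH replicate 3, and 7 of 8 without young sham replicate 3. *Aim2* was among the members no longer called without young ICH replicate 3 (log2FC 0.57) and without young sham replicate 3 (0.51), where its FC fell under 1.5 while its adjusted *P* by edgeR was 0.0266 and 0.0260. Without the 5 libraries whose choroid plexus genes summed to 300 CPM or more, which left 3 aged sham and 2 young ICH samples and 1 each of young sham and aged ICH, 1 of 8 members was called in young mice (*Aim2*) and 7 of 8 in aged mice. Both of these comparisons had a group of 1 sample, which was assumed to vary like the other groups, so that neither count shows how far the result depends on choroid plexus tissue. The remaining young sham sample, replicate 3, was the highest of its group in all members but *Aim2*, and the part of choroid plexus tissue in the counts was not tested.

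**Figure D3:**
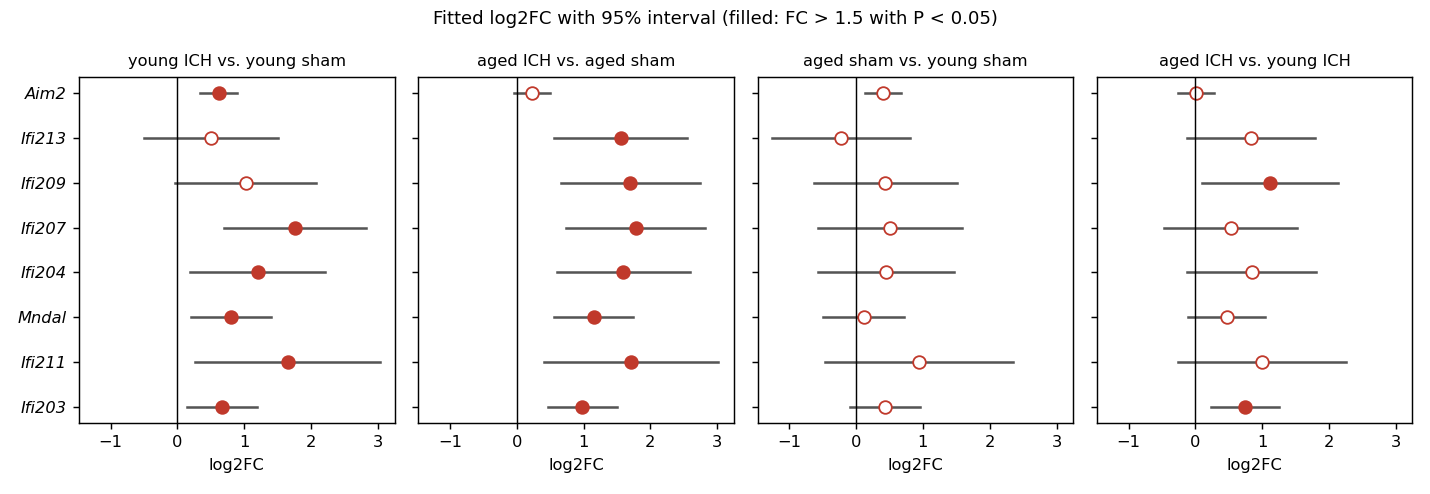
Fitted log2FC (x axis) with its 95% interval for the 8 members (y axis) in 4 pairwise comparisons of 3 against 3 samples, filled where FC > 1.5 with an unadjusted *P* under 0.05. In the aged ICH vs. aged sham panel 7 of 8 points are filled, and *Aim2* has the narrowest interval in every panel.

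The question of age without hemorrhage was addressed by the sham groups. In aged sham vs. young sham none of the 8 members was called up or down, against 2.82% of all genes called up and 193 of 21495 called down. None had an adjusted *P* under 0.05, at which 0.0884% of all genes were higher and 3 genes lower. An unadjusted *P* under 0.05 was reached by 1 of 8 members, *Aim2*, against 12.3% of all genes in either direction. With DESeq2 the count of called members was also 0. The fitted log2FC was positive in 7 members with a median of 0.43 (0.009 over all genes), and only *Aim2* had groups without overlap, against 9.81% of all genes. *Ifi211* had the largest value, 0.94 with an interval from −0.47 to 2.34 (0.48 without aged sham replicate 1 and 1.70 without young sham replicate 3), and *Ifi213* the lowest, −0.22 with an interval from −1.26 to 0.81. Aged sham replicate 2 decided this count. Without it 5 members (*Ifi209*, *Ifi207*, *Ifi204*, *Ifi211* and *Ifi203*) were called up with log2FC from 0.59 to 1.38, and the lowest adjusted *P* of these was 0.228 by edgeR. Without young sham replicate 3 the count was 1 (*Ifi211*).

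Between the ICH groups *Ifi209* and *Ifi203* were called higher in aged mice, 2 of 8 members, against 2.21% of all genes tested. None had an adjusted *P* under 0.05, at which 0.0372% of all genes were higher and 4 genes lower. *Ifi209* was at 5.31, 3.63 and 6.71 CPM in young ICH and 2.17-fold higher in aged ICH (log2FC 1.12 ± 0.46, adjusted *P* = 0.483 by edgeR). *Ifi203* was at 6.33, 3.73 and 5.64 CPM in young ICH and 1.68-fold higher in aged ICH (log2FC 0.75 ± 0.23, adjusted *P* = 0.343 by edgeR). The log2FC was positive in all 8 members with a median of 0.79, and in 4 (*Ifi213*, *Ifi209*, *Mndal* and *Ifi203*) every aged ICH sample lay above every young ICH sample, against 6.9% of all genes. The number called was 0 without young ICH replicate 2, 1 without young ICH replicate 1, aged ICH replicate 1 or aged ICH replicate 3, and 5 without young ICH replicate 3, so that it depended on which libraries were kept.

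The difference of the ICH responses between the ages was tested directly as the interaction of age and ICH. None of the 8 members was called by edgeR or by DESeq2, against 0.484% of all genes called up and 1.08% called down, and neither a member nor any other gene reached an adjusted *P* under 0.05 with a higher response in aged mice (0%). *Ifi213* had the largest positive difference, 1.06 with a 95% interval from −0.35 to 2.47 on the log2 scale, and it was 0.44 without young sham replicate 3 and 1.54 without young ICH replicate 3. *Aim2* was the one member with a negative difference, −0.39 ± 0.18, and the one with an unadjusted *P* under 0.05 (adjusted *P* = 0.99991 by edgeR). Over all genes 2.82% had an unadjusted *P* under 0.05 in this test. The intervals of the other 6 all included 0 and reached values above 1, so that neither a larger nor an equal response of aged mice was shown. The comparisons share groups, so that the low values of aged sham replicate 2 enter both the age and the ICH comparison of aged mice.

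The 8 members were also added up, since their sum does not depend on how reads that were counted once were split among them. It does depend on reads shared with other genes. Reads that fit several members would also change it if they were left out or counted more than once, which is not known. The sum was 19.8, 19.4 and 29.6 CPM in young sham replicates 1 to 3, 42.1, 37.4 and 60.7 CPM in young ICH, 39.1, 16.6 and 35.3 CPM in aged sham, and 83.7, 64.0 and 76.2 CPM in aged ICH. Every aged ICH sample lay above all other samples, and the young ICH samples lay above the young sham samples. The mean sum was 2.04-fold higher after ICH in young mice and 2.46-fold higher in aged mice, and it was 1.32-fold higher in aged sham than in young sham. *Aim2* made up 26.9 ± 9.33% of the summed FPKM in young sham, 18.9 ± 4.13% in young ICH, 28.6 ± 14.1% in aged sham and 11.4 ± 1.69% in aged ICH. Its share was highest, 44.7%, in aged sham replicate 2, where the other members were low.

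**Figure D4:**
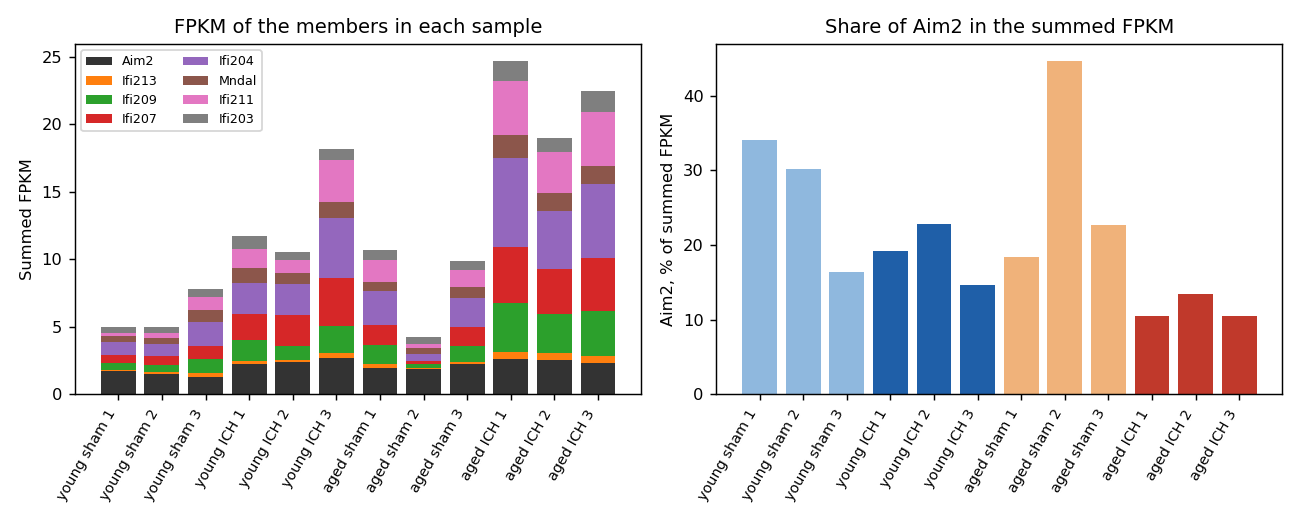
Left, summed FPKM of the 8 members in each of the 12 samples, split by gene. Right, the share of *Aim2* in that sum in percent, which lies between 10.4% and 13.4% in the aged ICH samples and between 14.6% and 44.7% in the others.

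Within the groups the 7 members other than *Aim2* mostly lay on the same side of their group means, except in young ICH replicate 1 and aged ICH replicate 3, where they lay on both sides. In aged sham replicate 2 all 7 were below the mean of their group, by 0.36 to 1.75 on the log2 CPM scale, and in young sham replicate 3 all 7 were above it, by 0.24 to 1.07. *Aim2* deviated by −0.09 and −0.23 in the same samples, and by at most 0.23 in any sample. Over the 12 samples Pearson's *r* between pairs of these 7 genes was 0.81 to 0.98, and 0.58 to 0.96 after the group means were removed. With *Aim2* it was 0.42 to 0.69, and −0.25 to 0.22 after the group means were removed. The samples share libraries and, for part of the genes, reads, so that these are descriptions of 12 libraries.

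**Figure D5:**
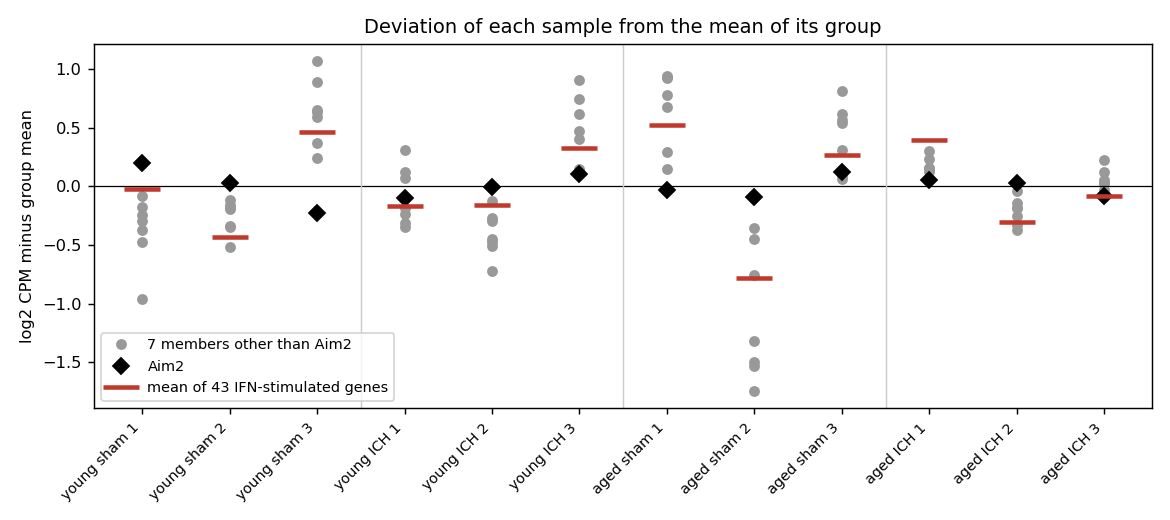
Deviation of log2 CPM from the mean of its group (y axis) in each of the 12 samples (x axis), for the 7 members other than *Aim2* (grey), for *Aim2* (black) and for the mean of 43 IFN-stimulated genes outside the family (red). Aged sham replicate 2 has all 7 grey points and the red mark below 0, and young sham replicate 3 has them above 0.

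The rest of the family was weakly expressed. Of the other p200 genes, 6 matched the table by symbol, and 4 passed the filter. *Ifi205* was at 0.786 ± 0.504 CPM in aged sham and 2.22 ± 0.313 CPM in aged ICH and was called in both ICH comparisons (log2FC 1.46 ± 0.60 in young and 1.49 ± 0.52 in aged mice, adjusted *P* = 0.113 and 0.0827 by edgeR), and it shares stretches with *Ifi211*. *Ifi208* was called in aged mice (log2FC 1.35 ± 0.46, adjusted *P* = 0.0738 by edgeR), with an interaction of 1.18 that did not pass (adjusted *P* = 0.99991 by edgeR). *Ifi206* (log2FC 1.12 ± 0.52 in aged mice) and *Ifi203-ps*, a pseudogene (0.63 ± 0.52), did not pass. *Ifi202b* had 0 to 5 and *Ifi214* 0 to 13 counts per sample, too few to test.

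Among the nearest tested genes on each side of the cluster, *Ifi205* and *Slamf8* were called after ICH. *Slamf8* encodes a surface protein of the SLAM family found on myeloid cells, and its log2FC was 1.003 in young and 0.71 in aged mice (adjusted *P* = 0.0509 and 0.135 by edgeR). *Ackr1*, the nearest tested gene before *Aim2* at 17129 bases, had log2FC of −0.18 and 0.07, and *Dusp23* 0.50 and 0.40, none of them called. On the other side *Fmn2*, a neuronal formin, had lower values after ICH (log2FC −0.38 and −0.42, adjusted *P* = 0.00287 and 0.00463 by edgeR), smaller than the FC that a call required. *Cadm3*, inside the span and named after its values were seen, had −0.57 and −0.44 (adjusted *P* = 0.01 and 0.0393 by edgeR), also within that FC.

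Genes of the pathways around the p200 proteins and markers of cell types were taken from lists, whose counts after ICH stand beside 8.66% (young) and 7.24% (aged) of all genes upregulated and 3.49% (young) and 2.82% (aged) downregulated. Of 17 tested genes of the AIM2 inflammasome and pyroptosis, 9 were upregulated in young mice after ICH and 8 in aged mice, and none was downregulated (median log2FC 0.61 and 0.59). *Casp8* rose in both (log2FC 0.96 ± 0.20 and 1.07 ± 0.20, adjusted *P* = 0.00829 and 0.00873 by edgeR), as did *Ninj1*, which ruptures the membrane of dying cells (0.77 ± 0.15 and 0.66 ± 0.15). *Pycard*, the adaptor of AIM2, had a log2FC of 0.49 ± 0.13 in young mice, where its FC was too small for a call, and of 0.59 ± 0.13 in aged mice, where it passed. *Nek7*, the most abundant gene of the list, had values of 0.12 and −0.08, and *Il18*, a substrate of the inflammasome, of −0.03 and −0.07. Of 17 tested genes of cytosolic DNA sensing, 3 and 4 were upregulated (median log2FC 0.17 and 0.16). *Irf3*, the transcription factor downstream of STING, was called in young mice (0.59 ± 0.09) and had 0.45 ± 0.09 in aged mice, below the FC that a call required.

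Among IFN ligands, receptors and signalling genes 16 of 36 could be tested, since most ligands had few or no counts, and 8 ligands (*Ifna1*, *Ifna9*, *Ifna12*, *Ifna14*, *Ifna15*, *Ifna16*, *Ifnz* and *Ifnl2*) had 0 counts in all 12 samples. Of the 16 tested, 3 were upregulated in young and 8 in aged mice (median log2FC 0.39 and 0.53), and none was called in the interaction. *Stat2*, which carries the type I IFN signal to ISREs, had a log2FC of 1.10 ± 0.19 in aged mice (adjusted *P* = 0.00661 by edgeR) and of 0.57 ± 0.19 in young mice, which was too small for a call. *Irf1*, a further factor that binds ISREs, had 0.96 ± 0.18 and 0.37 ± 0.18, and was called in aged mice. Neither gene passed the test of the difference between the ages (adjusted *P* = 0.99991 for both by edgeR). The difference was 0.53 for *Stat2* (edgeR's unadjusted *P* = 0.0727). For *Irf1* it was 0.58 (edgeR's unadjusted *P* = 0.0439), with an FC of 1.498, just under that of a call.

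Of 43 tested IFN-stimulated genes outside the family, 19 were upregulated in young mice after ICH and 39 in aged mice (median log2FC 0.70 and 1.29). In aged sham against young sham 3 were upregulated (2.82% of all genes). In aged ICH against young ICH 27 met the unadjusted criterion (2.21% of all genes) and 0 had an adjusted *P* under 0.05 by edgeR. There all 43 had a positive log2FC, with a median of 0.83. In the interaction none was called by either threshold. The difference was positive in 42 of the 43, with a median of 0.53 beside −0.005 over all genes. *Iigp1* and *Irgm1*, GTPases against intracellular pathogens, had log2FC of 1.84 ± 0.34 and 1.42 ± 0.28 in aged mice and of 1.08 ± 0.34 and 1.04 ± 0.28 in young mice. The summed level of the 44 genes of this list followed the members across the libraries, with 645, 681 and 913 CPM in young ICH and 1643, 980.5 and 1188 CPM in aged ICH. Pearson's *r* between its mean log2 CPM and the mean of the 7 members other than *Aim2* was 0.97 over the 12 samples and 0.92 after the group means were removed. For *Aim2* it was 0.62 and 0.08. Such values of the 7 members were not particular to this list. They were 0.97 and 0.92 with cytosolic DNA sensing, and 0.96 and 0.875 with IFN ligands, receptors and signalling. With pan-leukocyte genes they were 0.95 and 0.91, and with the AIM2 inflammasome and pyroptosis 0.94 and 0.84.

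By Pearson's *r* with the mean profile of the 8 members over the 12 samples, the 10 genes most like them were *Psmb8* (*r* = 0.991), a subunit of the immunoproteasome, *Fcgr1* and *Fcer1g*, of Fc receptors, *Slfn8* and *Slfn2*, of the Schlafen family, *Trim30a*, *Irgm1* and *Gbp3*, known as IFN-induced, *Tspo*, a mitochondrial protein of activated microglia, and *Mmp13*, a collagenase (lowest *r*, for *Gbp3*, 0.978). Of these 4 were in the list of IFN-stimulated genes. The members themselves ranged from 0.989 for *Ifi204* to 0.70 for *Aim2*. *Psmb8* had log2FC of 0.91 in young and 1.29 in aged mice after ICH (adjusted *P* = 0.0386 and 0.0129 by edgeR).

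Lists of monocyte and macrophage genes and of pan-leukocyte genes moved with the members other than *Aim2* across the libraries. Of 13 tested genes of monocytes and macrophages, 8 were upregulated after ICH in young mice and 8 in aged mice, with 1 downregulated in the latter. Their summed level, in which *Fn1* was the most abundant and none was at 0, was 181, 163 and 164 CPM in young sham, 315, 300.2 and 351 CPM in young ICH, 170, 139 and 217 CPM in aged sham and 355, 293 and 335 CPM in aged ICH. *Chil3*, a chitinase-like protein of these cells, rose with log2FC of 3.58 ± 0.54 in young and 2.94 ± 0.48 in aged mice. In aged ICH against young ICH 1 of the 13 was called (2.21% of all genes), with a median log2FC of 0.05 for the list. None was called in the interaction, where 2 of the 13 had a positive value and the median was −0.30. The mean log2 CPM of the 7 members other than *Aim2* and of this list correlated over the 12 samples with *r* = 0.92, and also with *r* = 0.92 after the group means were removed. For the 5 pan-leukocyte genes, led by *Coro1a* and none at 0, the sums were 158, 156 and 174 CPM in young sham, 205, 181 and 194 CPM in young ICH, 162, 134 and 162 CPM in aged sham and 214, 193 and 199 CPM in aged ICH. Aged sham replicate 2 was the lowest sample of both lists. With choroid plexus genes the *r* of the 7 members was 0.34, and 0.16 after the group means were removed, while that of *Aim2* was 0.33, and 0.63 after the group means were removed. Over the 12 samples *Aim2* had its highest *r* with genes of neutrophils (0.88), endothelial cells (0.85) and astrocytes (0.84). After the group means were removed these were 0.38, 0.53 and 0.71. Of 8 endothelial genes 5 were upregulated after ICH in young and 3 in aged mice, and of 7 astrocyte genes 3 and 1. Of 10 tested neutrophil genes 8 were upregulated in each ICH comparison. In the interaction 0 of the 10 had a positive value, with a median of −0.78. There 2 were called down (1.08% of all genes), and 0 had an adjusted *P* under 0.05 by edgeR. In aged ICH against young ICH 4 of the 10 were called up (2.21% of all genes), and 0 had an adjusted *P* under 0.05 by edgeR. In aged sham against young sham 7 met the unadjusted criterion (2.82% of all genes) and 0 had an adjusted *P* under 0.05 by edgeR. Their *r* with the 7 members was 0.76, or 0.08 after the group means were removed. Of 10 genes of homeostatic microglia, 1 was upregulated and 2 were downregulated in each ICH comparison, and *r* was −0.18. Of 8 tested T cell genes 5 were upregulated in young mice (1 with an adjusted *P* under 0.05 by edgeR), and 0 were upregulated and 1 downregulated in aged mice, while none was called in the interaction. Their mean log2 CPM in young ICH was 1.74 in replicate 1 against −0.15 and 0.41 in the others. Their *r* was 0.27, and 0.145 after the group means were removed. For the 2 tested B cell genes *r* was 0.24 and 0.65, for 7 dendritic cell genes 0.92 and 0.83, and for 2 NK cell genes 0.62 and 0.53, before and after the group means were removed. The dendritic cell list shares *Bst2* with the IFN-stimulated genes and *Siglech* with homeostatic microglia. Of the 7 dendritic cell genes 0 were upregulated and 1 (*Siglech*) was downregulated after ICH in young mice. In aged mice 1 (*Bst2*, the most abundant in that group) was upregulated and 1 (*Siglech*) downregulated. The log2FC was positive in 5 of the 7 at either age, with a median of 0.62 in young and 0.55 in aged mice. Of 10 striatal neuron genes 0 had a positive log2FC after ICH at either age. Their median was −0.95 in young and −1.11 in aged mice, with 1 gene called down in each, and their *r* was −0.60, or −0.14 after the group means were removed. The part of these cell types in the levels of the members was not tested.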

How the data were processed

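Libraries were made from total RNA of 12 samples, and the authors aligned paired reads to GRCm38.p6 with HISAT2 and deposited raw counts per gene (featureCounts, of Subread) together with FPKM in one table. The FPKM of the 14 family genes in the table fitted division by the exonic length of GENCODE M21, since all 163 values above 0 came within 0.1% of it. Counts were tested with edgeR 4.0.16 (limma 3.58.1, R 4.3.3) (quasi-likelihood test, TMM factors) in one fit of all 12 samples and 4 groups. filterByExpr at a minimum count of 10 kept 21495 genes. *P* values were adjusted by Benjamini-Hochberg over all of them. A DEG had FC > 1.5 or < 0.67 and an unadjusted *P* under 0.05, the rule of the study. CPM used TMM-normalized library sizes, with a prior count of 2 on the log2 scale. The fit was tested on simulated data.

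The members and the lists of genes were chosen with earlier results of these data known. Named genes are the 8 members, the other p200 genes, the 3 nearest tested genes on each side, the 10 genes of highest Pearson's *r* and, from each list, genes with the highest mean CPM or the smallest *P* in aged ICH vs. aged sham, of which the text names part. One such gene is not reported here. Alternatives were DESeq2 1.42.0, RLE factors, no filter, the compared groups only, the replicate number as a block, limma on log2(FPKM + 0.5) or log2(FPKM + 0.1) for genes with a mean FPKM of at least 0.1, the adjusted threshold, and leaving out each sample. Protein sequences were not used here.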

Additional observations from a re-analysis of the deposited data

Results flagged for a closer look

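*Aim2* was the one member whose response to ICH differed between the ages by the interaction test at an unadjusted *P* under 0.05, which 2.82% of all genes tested also reached. Its log2FC after ICH, 0.62 in the young and 0.22 in the aged groups, differed by −0.39 ± 0.18 (adjusted *P* = 0.99991 by edgeR over all genes), and every ICH sample lay above the sham samples of its age. The unadjusted *P* was 0.0454. Across the alternatives it went from 0.0155 (young sham replicate 1 left out) to 0.109 (young sham replicate 3 left out), and the lowest adjusted *P* was 0.862.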

How the results depend on the processing

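Of 792 values of single members under the alternatives, 702 kept their direction and their side of the DEG criterion, 28 lost and 36 gained the call, and 26 changed sign. The count of 7 upregulated members in aged ICH vs. aged sham stayed 7 under each alternative but the adjusted threshold, which gave 6. In young ICH vs. young sham (6 members) the adjusted threshold gave 2, leaving out 1 sample 2 to 7, and leaving out the 5 libraries with choroid plexus genes, an alternative chosen after seeing the data, 1. That alternative leaves 1 young sham sample (replicate 3) and 1 aged ICH sample, assumed to vary like the other groups, so that its values rest on single libraries and do not bear on stability. In aged ICH vs. young ICH (2 members) the count was 5 without the expression filter and 5 with the compared groups only, 0 at the adjusted threshold, and 0 to 5 with 1 sample left out. In aged sham vs. young sham (0 members) it was 0 to 5 with 1 sample left out and 1 without the choroid plexus libraries, and in the interaction (0 members upregulated) 0 to 1 and 1. The member gained in the interaction was *Ifi213*, and without the choroid plexus libraries *Aim2* also met the criterion in the other direction (−0.67). By Spearman's rho, 5 of the 10 most similar genes were kept.

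The values below include those that changed sign. With 1 sample left out, the log2FC in aged sham vs. young sham ranged from −0.63 to 0.39 for *Ifi213* and from −0.0605 to 0.48 for *Mndal*, and that of *Aim2* in aged ICH vs. young ICH from −0.0412 to 0.0598. The interaction ranged from −0.45 to 0.39 for *Ifi207*, −0.0199 to 0.77 for *Ifi204*, −0.0095 to 0.53 for *Mndal* and −0.70 to 0.66 for *Ifi211*. Without the choroid plexus libraries, and so against young sham replicate 3 alone, the aged sham vs. young sham value was −0.15 for *Ifi209*, −0.12 for *Ifi204* and −0.43 for *Mndal*, and that of *Ifi213* in young ICH vs. young sham −0.77. That of *Aim2* in aged ICH vs. young ICH, with aged ICH replicate 3 alone, was −0.0251. The cause was not tested.

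With the replicate number as a block 7 members were called after ICH at either age, 5 between the ICH groups, and 0 between the sham groups and in the interaction. Of 18 same-numbered pairs 5 had deviations correlated over 0.1, and 1 of 12 samples correlated best with its own number. With 3 samples a group these correlations cannot tell whether samples of the same number were handled together. The interaction needs all 4 groups, so that the fit of the compared groups only was not run for it. Depth limits *Ifi213* (17 to 122 counts per sample) and *Ifi211* (15 to 248) more than the other members.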
